A study of Mus musculus with 21 samples.

Results

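PIC496-4 and PIC496-3 are cultures of glioma stem-like cells, tumour cells grown as floating spheres in neural stem cell medium, derived from brain tumours of genetically engineered mice. Both are IDH1 mutant per the labels, so the genotype the study varied was shared by the 2 lines. The comparison set 3 mRNA-seq libraries of PIC496-4 against 3 libraries of PIC496-3, out of 21 libraries of 7 lines (4 IDH1 mutant, 3 IDH1 WT). The labels give no sex, age, transgene driver, passage or added drug for either line. Both were grown with EGF and bFGF at 20 ng/mL each, heparin, 5% CO2 and 5% oxygen. The shared number 496 may mean a common animal, which the labels do not say. Genes were taken where they lie on an autosome and had a mean of at least 0.5 FPKM (fragments divided by gene length and by library size) in one of the 2 lines. This left 12951 of 50225 autosomal genes, 11511 of them above the limit in both lines, 590 in PIC496-4 alone and 850 in PIC496-3 alone. Just inside the limit, from 0.5 to 0.55 FPKM, lay 181 genes, and just outside it, from 0.45 to 0.5 FPKM, lay 225.

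Tumour sphere lines keep a record of the brain region and lineage they came from in their homeobox and other patterning factors. In the embryo SIX3, LHX2 and EMX2 mark the forebrain, while the Hox genes pattern the hindbrain and spinal cord and are read along each cluster in the order of their positions. MYC is a transcription factor that drives ribosome production and growth, and the long noncoding RNA gene Pvt1 lies beside it.

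The libraries held 16558132, 18658489 and 18441542 fragments in genes in PIC496-4, and 16568840, 19229886 and 16736756 in PIC496-3. Ribosomal protein genes took 4.77 to 5.68% of fragments in PIC496-4 and 4.27 to 4.59% in PIC496-3. Replicate 2 of PIC496-4 resembled its sister libraries less (Pearson r = 0.978 and 0.980 over log2 levels) than replicates 1 and 3 resembled each other (0.988), while r was 0.986 to 0.987 within PIC496-3 and 0.915 to 0.925 between the lines. In that library 307 genes lay at least 1 log2 unit from the mean of its sisters, against 204 and 239 in the sisters themselves. Its deviation went with gene length, with a median of -0.14 in the shortest 2591 genes and 0.16 in the longest 2590. The labels call the libraries biological replicates without naming separate cultures or animals, so the p-values measure the spread between these libraries, which may be technical.

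Many genes differed between the lines, and the large differences were more often losses in PIC496-4. Differences are given as PIC496-4 minus PIC496-3 in log2(FPKM + 0.5), which understates the change of low genes, and were tested with limma at a Benjamini-Hochberg adjusted p under 0.05. Of the 12951 genes, 5881 passed (45.4%), 2906 higher (22.4%) and 2975 lower (23%) in PIC496-4. By at least 1 log2 unit, 435 genes rose (3.36%) and 965 fell (7.45%). Of the 435, 178 had passed the level limit through PIC496-4 alone, and of the 965, 401 had passed it through PIC496-3 alone. A gene that passed through a single line is higher in that line by this rule, also in the gene lists below. By at least 3 log2 units, 26 genes rose and 96 fell. The 3 libraries of a line lay wholly above or below the other 3 for 7331 genes (56.6%). The median difference over all genes was 0.02. Without replicate 2 of PIC496-4, 5584 of the 5881 genes and 1389 of the 1400 with large differences still passed.

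**Figure D1:**
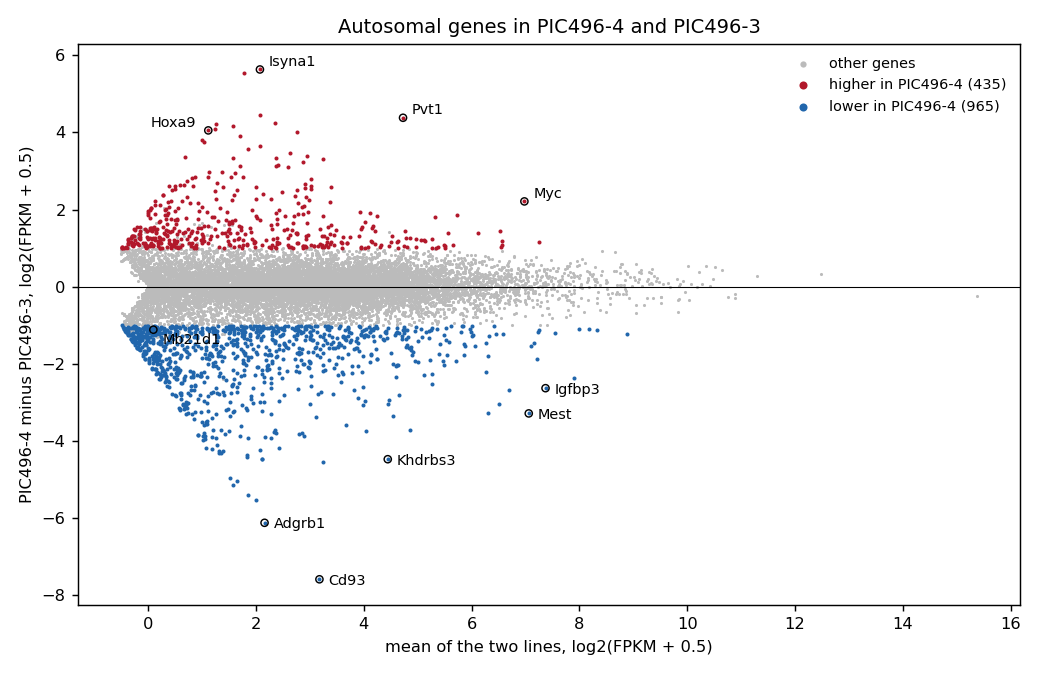
Each point is an autosomal gene, with its mean level over both lines on the x axis and its difference, PIC496-4 minus PIC496-3, on the y axis, both as log2(FPKM + 0.5). Red points are the 435 genes that rose and blue points the 965 that fell by at least 1 log2 unit with an adjusted p under 0.05. The differences span -7.58 (Cd93) to 5.63 (Isyna1).

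The promoters of 4 patterning genes are printed because these genes had the largest differences of the patterning list, in each direction, among those with a promoter window in the RefSeq table (build GRCm38.p6). Each window is 300 bases long and is given 5′ to 3′ on the gene's own strand, with CG dinucleotides in capitals. Hoxa9 (chr6:52227321-52227620, minus strand) and Barhl2 (chr5:106458117-106458416, minus strand) were higher in PIC496-4, and Nkx6-2 (chr7:139582748-139583047, minus strand) and Six3 (chr17:85620584-85620883, plus strand) were lower.
Hoxa9: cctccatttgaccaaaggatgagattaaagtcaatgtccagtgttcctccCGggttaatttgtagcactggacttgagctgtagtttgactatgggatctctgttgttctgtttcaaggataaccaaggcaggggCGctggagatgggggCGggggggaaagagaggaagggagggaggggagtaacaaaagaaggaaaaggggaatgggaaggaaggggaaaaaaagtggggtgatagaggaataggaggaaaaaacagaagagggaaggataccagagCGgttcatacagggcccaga
Barhl2: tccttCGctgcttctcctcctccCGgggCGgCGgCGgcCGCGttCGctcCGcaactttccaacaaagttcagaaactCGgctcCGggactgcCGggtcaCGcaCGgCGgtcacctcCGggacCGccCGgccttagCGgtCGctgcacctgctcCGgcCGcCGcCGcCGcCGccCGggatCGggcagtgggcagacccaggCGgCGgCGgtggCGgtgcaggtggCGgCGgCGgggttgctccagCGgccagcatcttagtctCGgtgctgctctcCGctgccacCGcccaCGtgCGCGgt
Nkx6-2: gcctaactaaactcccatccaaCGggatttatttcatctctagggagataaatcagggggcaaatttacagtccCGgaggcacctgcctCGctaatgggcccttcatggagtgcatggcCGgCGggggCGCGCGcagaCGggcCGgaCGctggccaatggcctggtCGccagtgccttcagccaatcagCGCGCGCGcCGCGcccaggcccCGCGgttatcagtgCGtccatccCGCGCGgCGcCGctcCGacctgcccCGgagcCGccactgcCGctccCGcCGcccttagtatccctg
Six3: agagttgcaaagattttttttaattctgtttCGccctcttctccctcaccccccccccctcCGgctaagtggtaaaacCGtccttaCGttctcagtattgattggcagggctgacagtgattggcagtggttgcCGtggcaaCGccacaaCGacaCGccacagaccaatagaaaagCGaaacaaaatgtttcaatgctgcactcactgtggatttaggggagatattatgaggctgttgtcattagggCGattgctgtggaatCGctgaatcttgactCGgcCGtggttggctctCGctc
The Hoxa9 window held 4 CG and the Six3 window 14, and their start sites lie 3719 and 7226 bases from the gene start given in the deposited file. The Barhl2 window held 42 CG and the Nkx6-2 window 32, both at the start given there. Over the 9028 tested genes matched to a window by symbol, the median was 22 CG. It was 16 in the 283 matched genes that rose by at least 1 log2 unit and 21 in the 651 that fell by as much. The letters TATAAA, read on the gene's strand, occurred in 5.3% of the windows of genes that rose, in 5.38% of those that fell and in 3.72% of all. Methylation was not measured.

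Patterning factors moved in both directions. Several known from the forebrain fell. Six3, an eye and forebrain homeobox factor, was at 0.0889, 0.101 and 0.0996 FPKM in PIC496-4 and at 11.6, 10.9 and 10.1 FPKM in PIC496-3. Lhx2, a cortical LIM homeobox factor, was at 0.0551, 0.150 and 0.0617 FPKM in PIC496-4 and at 9.83, 9.17 and 9.87 FPKM in PIC496-3. The libraries of the 2 lines did not overlap in either gene. Meis2, a Hox cofactor of the TALE family, fell by 3.80 on the log2 scale, Nkx6-2, a ventral and oligodendrocyte homeobox factor, fell by 4.32, and Zic1, a zinc finger factor of the dorsal neural tube, fell by 3.20. Emx2, Dlx2, Dlx1 and Pax6, also read in the forebrain, fell by 2.10, 2.34, 1.90 and 1.75.

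Other patterning factors rose. Barhl2, a homeobox factor of the diencephalon and spinal cord, was at 7.48, 5.97 and 7.71 FPKM in PIC496-4 and at 0.108, 0.0227 and 0.0530 FPKM in PIC496-3. Nkx2-4, an NK-family homeobox gene, rose by 4.10. En2, the midbrain and hindbrain homeobox factor, rose by 1.74, and Otx1, of the forebrain and midbrain, rose by 1.77 while its relative Otx2 fell by 1.43. Of the 69 listed patterning factors 37 were tested, of which 15 rose and 16 fell, 11 and 12 of them by at least 1 log2 unit. The list's median was 0.11. The 18 listed factors with no fragment in any of the 6 libraries included Nkx2-1, Emx1 and several Hoxb, Hoxc and Hoxd genes.

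**Figure D2:**
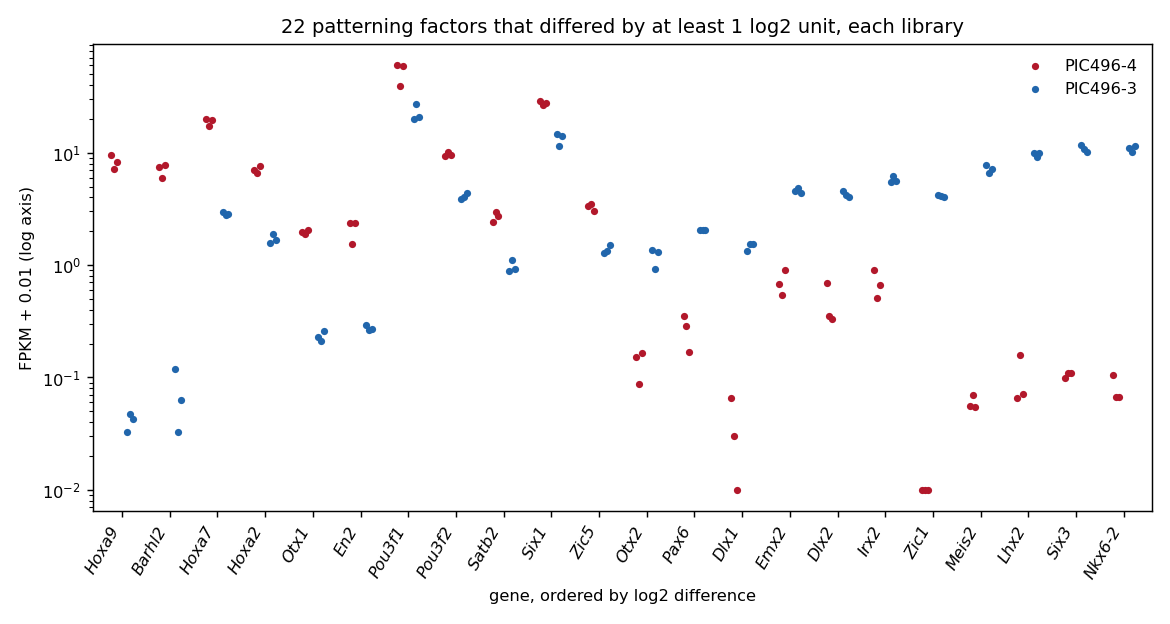
FPKM + 0.01 on a log axis in each of the 3 PIC496-4 libraries (red, left) and the 3 PIC496-3 libraries (blue, right) for 22 listed patterning factors that differed by at least 1 log2 unit. The libraries of the lines lie apart for each gene drawn, from Hoxa9 (4.05) to Nkx6-2 (-4.32).

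The Hoxa cluster on chromosome 6 rose at its 5′ end and at Hoxa2. Hoxa9 was at 9.59, 7.22 and 8.28 FPKM in PIC496-4 and at 0.0225, 0.0376 and 0.0330 FPKM in PIC496-3 (log2 difference 4.05, SE 0.12, limma adjusted p = 6.46e-07). Hoxa10 and Hoxa6 rose by 3.80 and 4.01, Hoxa7 by 2.53, Hoxa2 by 1.78 and Hoxa5 by 0.96. Hoxa3 and Hoxa4, in the middle, differed by 0.11 and -0.10 and did not pass (limma adjusted p = 0.527 and 0.497). Of 16 genes of the cluster, a list added after values were seen, 13 were tested and 10 rose, none fell, with a median of 1.38 (1.48 without replicate 2). Among these was the noncoding RNA Halr1 (3.16). Hoxa2 and Hoxa3 share exons with the gene model Gm28308, so their split is uncertain. Over windows of 25 neighbouring tested genes, the highest median of the genome, 0.81, lay from 50293330 to 52240854 on chromosome 6, which ends in this cluster. The lowest, -0.79, lay on chromosome 18 from 37640491 to 38250565, among the clustered protocadherins, adhesion genes of neurons. Of these 36 were tested, 27 fell and 2 rose, against 23% and 22.4% of all tested genes. Whole autosomes differed little, with medians from -0.05 (chromosome 6) to 0.08 (chromosome 5).

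Myc and the genes just beyond it rose, and the nearest tested neighbours on either side did not. Myc (chromosome 15, 61985391 to 61990374) was at 277, 251 and 285 FPKM in PIC496-4 and at 55.2, 64.1 and 55.1 FPKM in PIC496-3 (log2 difference 2.21, SE 0.09, limma adjusted p = 2.00e-06). Pvt1 was at 121, 120 and 121 FPKM in PIC496-4 and at 5.72, 4.96 and 5.27 FPKM in PIC496-3 (log2 difference 4.38, SE 0.07, limma adjusted p = 8.08e-08). H2afy3, a gene model inside Pvt1 on the other strand, had 583 fragments in PIC496-4 and 3 in PIC496-3, a ratio of 188 with a 95% counting interval of 63.9 to 912. The use of strand in the counting is not given in the sources used here, and Pvt1 covers 9.8% of the exon length of H2afy3. The nearest tested genes on either side, Fam84b at -1166 kb and Fam49b at 1944 kb from the Myc start, differed by -0.44 and -0.15, and Trib1, a pseudokinase gene, fell by 1.59. DNA copy number was not measured.

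**Figure D3:**
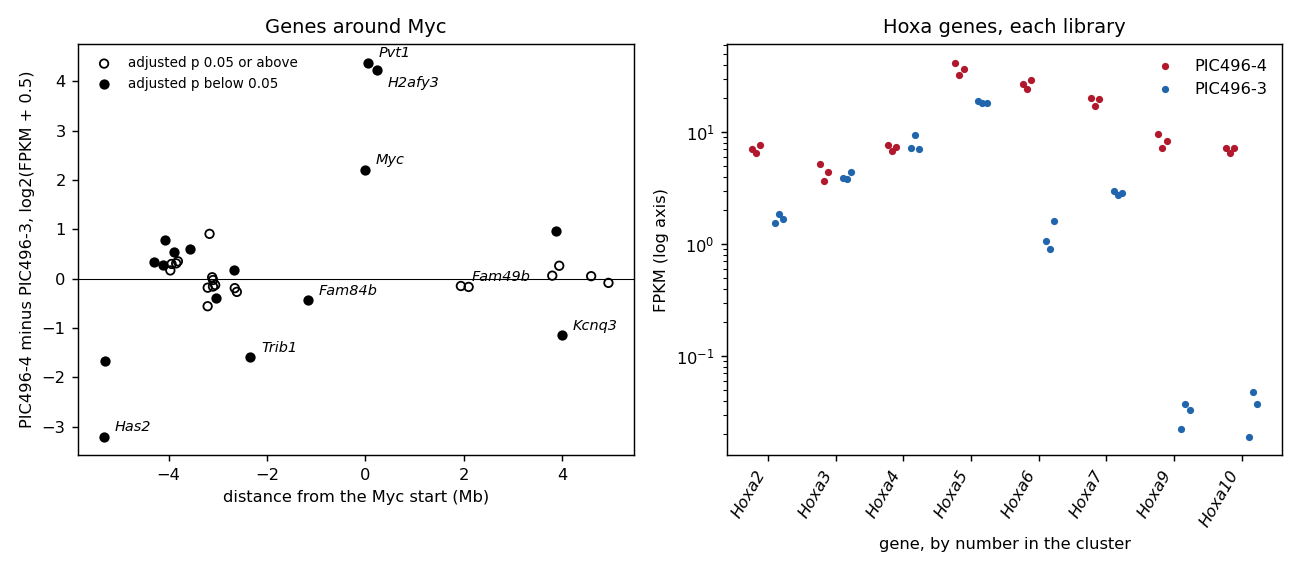
Left, log2 difference (PIC496-4 minus PIC496-3) of the tested genes within 6 Mb of the Myc start, by distance in Mb, with filled points for an adjusted p under 0.05. Right, FPKM on a log axis of 8 Hoxa genes in each PIC496-4 library (red, left) and PIC496-3 library (blue, right). Myc (2.21), Pvt1 (4.38) and H2afy3 (4.22) stand above their neighbours, and Hoxa9 and Hoxa10 show the widest gaps.

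Genes of ribosome production known to respond to MYC rose together, in a list added after the Myc values were seen. Of its 37 genes 36 rose, 7 by at least 1 log2 unit, and the median was 0.80, against 0.02 over all tested genes. All 37 calls held without replicate 2 of PIC496-4. Nop56, a subunit of the box C/D snoRNP, was at 46.7, 39.9 and 46.6 FPKM in PIC496-4 and at 19.1, 23.7 and 21.6 FPKM in PIC496-3. Srm, spermidine synthase, rose by 1.16, Polr1b, a subunit of RNA polymerase I, by 1.15, and Nolc1, a nucleolar phosphoprotein, by 1.04. Odc1, ornithine decarboxylase, was the gene that fell (-0.35). Of 76 tested cytosolic ribosomal protein genes 27 rose and none fell, with a median of 0.22, and without replicate 2 of PIC496-4 the number that rose was 55. The median deviation of this family was 0.07 in replicate 2 of PIC496-4 and 0.34 and 0.28 in replicates 1 and 3, relative to PIC496-3. Of MYC's relatives, Mycn was at 0.0367, 0 and 0.0329 FPKM in PIC496-4 and at 2.72, 2.37 and 2.77 FPKM in PIC496-3, and Mycl fell by 1.26. Max, MYC's dimer partner, rose by 0.33. Of 32 proliferation genes 14 rose and 1 fell (17 and 3 without replicate 2 of PIC496-4), with a median of 0.18, and Ccne1, cyclin E1, rose by 1.28.

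Receptors and ligands of growth factors mostly fell. Of 31 tested genes 21 fell and 4 rose, 15 and 1 of them by at least 1 log2 unit, with a median of -1. Those that fell included Pdgfra, Kit and Pdgfc, with means below 0.5 FPKM in PIC496-4. They passed the level limit through PIC496-3 alone, so the limit itself set their direction. Pdgfra, the PDGF receptor of oligodendrocyte progenitors, was at 0.429, 0.607 and 0.271 FPKM in PIC496-4 and at 5.79, 5.87 and 5.55 FPKM in PIC496-3 (log2 difference -2.75, SE 0.14, limma adjusted p = 7.41e-06). Kit, the stem cell factor receptor, fell by 2.75, Fgfr3 by 2.38, Ntrk2, the BDNF receptor, by 2.15, and Egfr, whose ligand EGF was in the medium, by 0.81. Tgfa, an EGFR ligand, fell by 2.01. Axl, the GAS6 receptor, was the gene of the list that rose by at least 1 log2 unit (2.05), while Fgfr1 differed by 0.04. Igfbp3, an IGF-binding protein, was at 66.4, 62.9 and 69.1 FPKM in PIC496-4 and at 407, 409 and 417 FPKM in PIC496-3. Of 19 feedback genes of the ERK pathway 13 fell and 2 rose, with a median of -0.43. Among these were Dusp4, an ERK phosphatase, which fell by 1.33, Phlda1 (-1.38) and Ccnd1, cyclin D1 (-1.19). Myc, which that list also holds, rose.

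Lineage markers of glia and neurons were lower in PIC496-4. Of 13 tested markers of oligodendrocyte progenitors 9 fell and 2 rose, with a median of -1.28. Lhfpl3 was at 0.226, 0.307 and 0.321 FPKM in PIC496-4 and at 16.2, 14.4 and 16.6 FPKM in PIC496-3. Olig2, the lineage's bHLH factor, was at 222, 160 and 216 FPKM in PIC496-4 and at 407, 449 and 401 FPKM in PIC496-3. Vcan, the proteoglycan versican, and C1ql1 rose, by 2.60 and 1.48. Of 16 tested astrocyte markers 9 fell and 4 rose: Aldh1l1, a folate enzyme, fell by 3.48, while Gja1, connexin 43, and Aqp4, the water channel, rose by 2.27 and 1.55. Of 8 neuronal markers 5 fell and none rose, with Gad1, the GABA-synthesizing enzyme, at -3.15 and Gap43, a growth cone protein, at -3.04. Of 5 tested markers of mature oligodendrocytes 3 fell and none rose. Listed markers of lymphocytes were not tested, with a summed level of 0 to 0.257 FPKM in PIC496-4 and of 0.0464 to 0.0877 FPKM in PIC496-3, and those of fibroblasts and pericytes gave 2 higher and 2 lower of 4 (1 and 1 without replicate 2 of PIC496-4). In bulk libraries, fewer cells of a type and less RNA per cell cannot be told apart.

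Factors of neural stem cells fell more often than they rose, 18 against 7 of 30, with a median of -0.55. Sox2 was at 123, 79.2 and 108 FPKM in PIC496-4 and at 236, 214 and 222 FPKM in PIC496-3. Sox9, a glial determinant, fell by 2.29, and Sox4 by 1.53. Nes, the filament protein nestin, did not pass (log2 difference -0.26, limma adjusted p = 0.101), and Prom1, which encodes CD133, rose by 1.26. Of 20 Notch pathway genes 11 fell and 4 rose: the ligand gene Jag1 and the targets Hes5 and Hey1 fell by 1.85, 1.85 and 1.68, while the ligand gene Jag2 rose by 2.51. In the Wnt and BMP list 11 rose and 11 fell of 32, against 22.4% and 23% of all tested genes. Id2, Wnt7a and Bmp7 were at -3.58, -3.30 and -3.05 and Sfrp2, Wnt7b and Id3 at 2.61, 1.82 and 1.81.

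**Figure D4:**
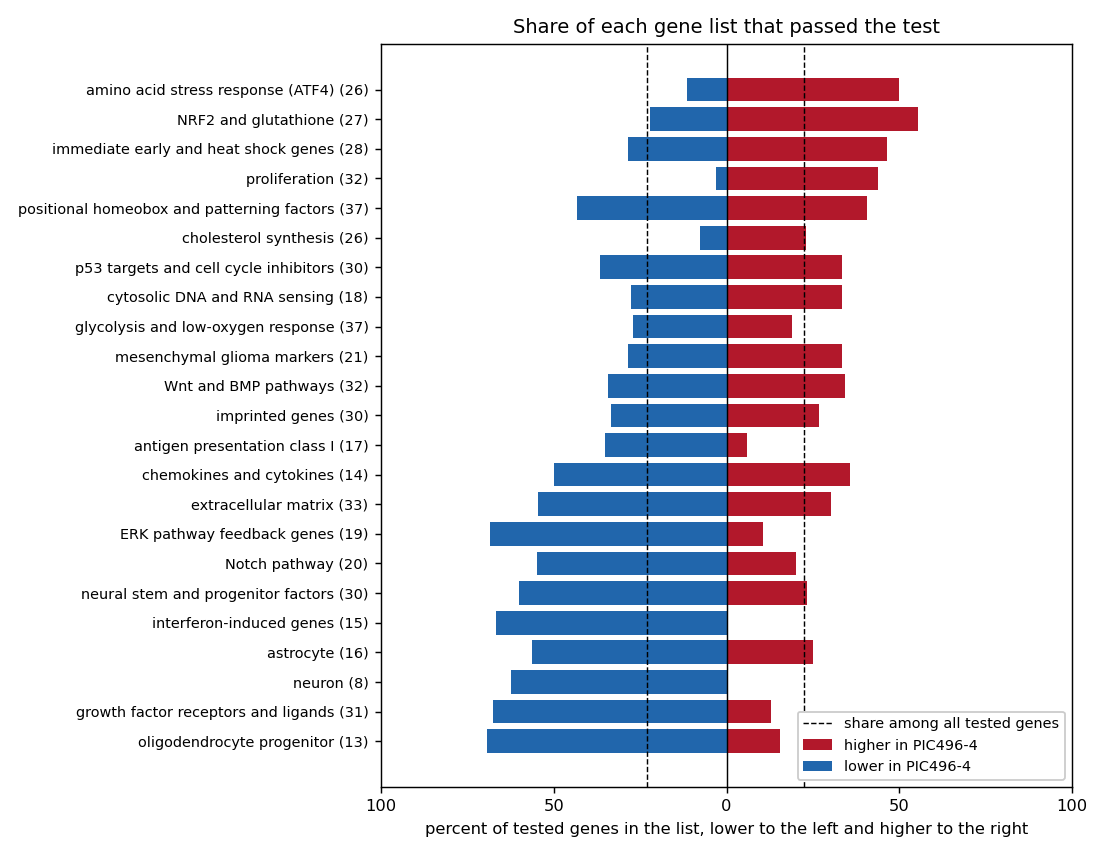
Percent of the tested genes of each list that rose (red, right) or fell (blue, left) in PIC496-4 at an adjusted p under 0.05, with the number tested in brackets and dashed lines at the share of all tested genes (22.4% and 23%). Lists with at least 8 tested genes are shown, ordered by median. The growth factor list reaches 21 of 31 genes lower and the interferon list 10 of 15.

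The largest losses were of surface and synaptic genes. Cd93, a C-type lectin-like receptor best known from endothelium and myeloid cells (chromosome 2, 148436640 to 148443563), was at 0.145, 0.205 and 0.114 FPKM in PIC496-4 and at 129, 122 and 122 FPKM in PIC496-3 (log2 difference -7.58, SE 0.08, limma adjusted p = 2.06e-08). Of 15 listed endothelial markers 1 was tested, and Cdh5, Cldn5, Slco1a4 and Sox17 had no fragment in any of the 6 libraries. The summed endothelial list was 0.985 to 2.10 FPKM in PIC496-4 and 4.34 to 5.23 FPKM in PIC496-3. Of 20 microglia and macrophage markers 3 were tested, and 9, among them Cx3cr1, Itgam and Tyrobp, had no fragment. Adgrb1, an adhesion receptor of the brain, fell by 6.12, Astn1, a neuronal migration protein, by 5.52, Kcnd2, a potassium channel, by 5.39, and Khdrbs3, a splicing factor, by 4.47. In the matrix list 18 of 33 genes fell and 10 rose, with a median of -0.36. Col11a1 fell by 4.31, Fbln2, fibulin 2, by 3.75, and Ncan, neurocan, by 2.21, and Col9a3 rose by 2.18. Of 21 mesenchymal glioma markers 7 rose and 6 fell, against 22.4% and 23% of all tested genes. Anxa1, annexin A1, and Cd44, the hyaluronan receptor, were at 1.91 and 1.54 and S100a10 at -1.46. Of 14 chemokines and cytokines 5 rose and 7 fell, with Cxcl1 and Cx3cl1 at 2.37 and 1.30 and Tgfb2, Spp1 and Ccl2 at -1.92, -1.71 and -1.64.

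The largest gain was Isyna1, inositol-3-phosphate synthase (chromosome 8, 70594373 to 70597290), at 26.7, 28.9 and 31.7 FPKM in PIC496-4 and at 0.0772, 0.0215 and 0.201 FPKM in PIC496-3 (log2 difference 5.63, SE 0.13, limma adjusted p = 2.22e-07). Car14, a carbonic anhydrase, rose by 4.46, Tesc, a calcium-binding protein, by 4.26, Cbr2, a carbonyl reductase, by 4.17, and Actc1, cardiac actin, by 3.64. Dcpp1 rose by 3.91, but shares exons with its paralog Dcpp2, so its value is uncertain. Of the imprinted genes, which are read from a single parental copy, Grb10, Cdkn1c, H19, Peg3 and Plagl1 rose by 3.56, 3.31, 2.41, 2.26 and 1.98. Mest was at 39.7, 45.3 and 41.9 FPKM in PIC496-4 and at 399, 441 and 407 FPKM in PIC496-3. Of 30 tested imprinted genes 8 rose and 10 fell, 5 and 4 of them by at least 1 log2 unit, with a median of -0.14. Over all tested genes 22.4% rose and 23% fell.

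Cgas and most of the tested interferon-induced genes were lower in PIC496-4. Cgas, listed under the older symbol Mb21d1, encodes the cytosolic DNA sensor named in the series' design. It was at 0.132, 0.266 and 0.289 FPKM in PIC496-4 and at 0.957, 1.22 and 1.04 FPKM in PIC496-3 (log2 difference -1.11, SE 0.15, limma adjusted p = 0.000977), which rests on 51 and 229 fragments. Tmem173, which encodes STING, the next step of that pathway, rose by 0.41 (limma adjusted p = 0.0018). Of 18 tested sensing genes 6 rose and 5 fell (9 and 5 without replicate 2 of PIC496-4). Their median was 0.06, or 0.24 without replicate 2 of PIC496-4 and -0.09 without replicate 1. For this list and those that follow, the shares over all tested genes were 22.4% higher and 23% lower. Of 15 tested interferon-induced genes, out of 36 listed, 10 fell and none rose, with a median of -0.76. Among those that fell, Ifit2, Ddx58, Gbp3, Samd9l, Isg15 and Rsad2 had means below 0.5 FPKM in PIC496-4. They passed the level limit through PIC496-3 alone, as Cgas did, so the limit itself set their direction. Ifi27, Ifi35, Cmpk2 and Irgm1 passed it in both lines and also fell. Over the 15 tested genes without replicate 2 of PIC496-4, 10 fell and 1 rose. The gene that rose there was Bst2, which encodes tetherin, at 29.9, 18.5 and 27.9 FPKM in PIC496-4 and at 20.6, 20.7 and 19.6 FPKM in PIC496-3 (limma adjusted p = 0.213 with all libraries and 0.000541 without replicate 2), while Irgm1 lost its call (0.0759) and Eif2ak2 gained one. Ifit2 fell by 1.40, Ddx58, the RNA sensor RIG-I, by 1.34, and Ifi27 by 1.32. Of 17 class I antigen presentation genes 6 fell and 1 rose: H2-D1, a classical class I chain, fell by 1.12, H2-K1 by 0.58 and B2m, the shared light chain, by 0.84. The H2 genes are near-identical relatives, so reads could be split between them. Idh1 itself was at 114, 128 and 117 FPKM in PIC496-4 and at 134, 136 and 130 FPKM in PIC496-3 (log2 difference -0.16, SE 0.07), which did not pass (limma adjusted p = 0.0867) but did without replicate 2 of PIC496-4 (0.00873).

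Of 26 tested ATF4 targets, genes of amino acid stress, 13 rose and 3 fell with a median of 0.33, Atf3 by 1.94 and Mthfd2, a mitochondrial folate enzyme, by 0.83. Of 27 NRF2 and glutathione genes 15 rose and 6 fell, with Gsto1 at 1.52. Of 28 immediate early and heat shock genes 13 rose and 8 fell. Their median deviation from PIC496-3 was 0.01 in replicate 2 of PIC496-4 and 0.36 in both sisters. Egr1, Egr2 and Egr3 fell by 1.36, 1.49 and 1.53, and Klf2 rose by 2.33. Trp53 was at 16.3, 14.5 and 17.6 FPKM in PIC496-4 and at 6.26, 5.79 and 5.88 FPKM in PIC496-3. Of 30 tested genes of the list of p53 targets and cell cycle inhibitors, which also holds Trp53, 10 rose and 11 fell, with Cdkn1a, which encodes p21, at -0.64 and Bbc3, which encodes PUMA, at 1.15. Glycolysis and cholesterol synthesis had medians of -0.01 and 0.10. Beside these list counts, 22.4% of all tested genes rose and 23% fell.

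Set among the other 5 lines, PIC496-4 was more often the line that stood apart. Of the 435 genes that rose by at least 1 log2 unit, PIC496-4 alone lay outside the range of the other 5 line means in 202 and PIC496-3 alone in 59. Both lay outside it in 91 and neither in 83. Of the 965 that fell, PIC496-4 alone lay outside in 522, PIC496-3 alone in 111, both in 196 and neither in 136. The same shares over all tested genes were not counted. Myc was at 25.4 to 134 FPKM, Isyna1 at 0.414 to 5.76 and Cd93 at 27.6 to 357 FPKM in the other 5 lines, and PIC496-4 lay outside each of these ranges. Hoxa9 ranged from 0 to 4.54 FPKM there. Over 14705 genes the median absolute difference between PIC496-4 and PIC496-3 was 0.287 log2 units, the 6th smallest of the 21 pairs of lines. The other 5 pairs that hold PIC496-4 ranked 13 and 18 to 21. These pairs share libraries, so the ranks are a description.

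**Figure D5:**
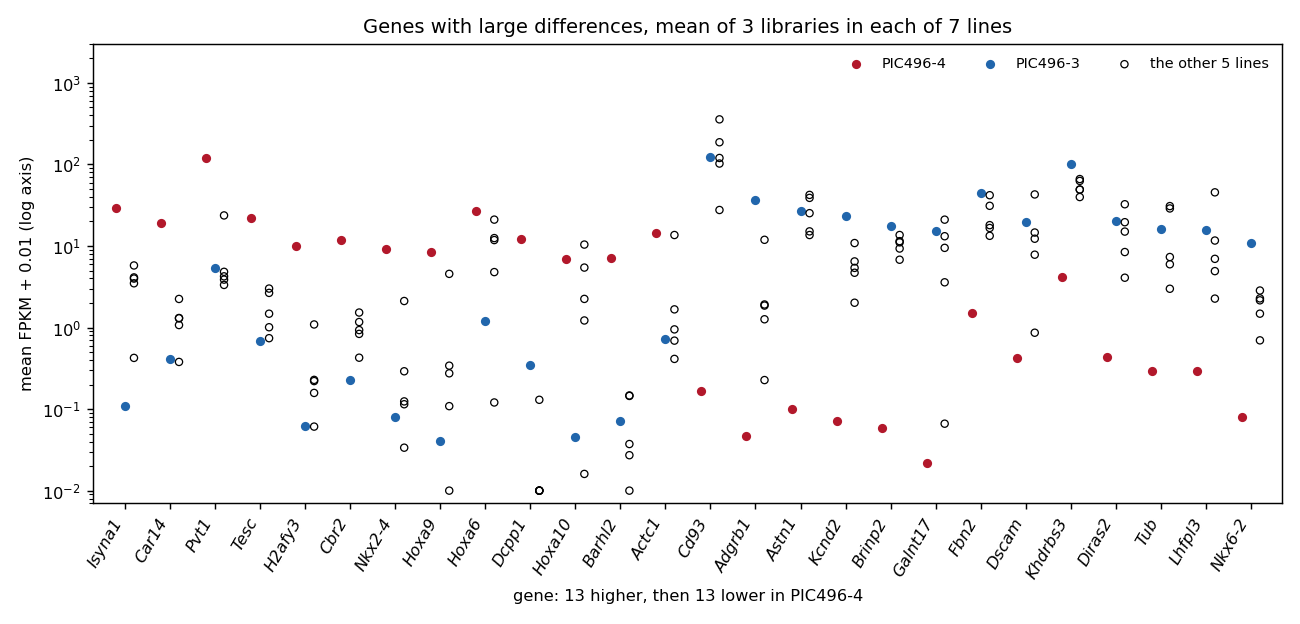
Mean FPKM + 0.01 on a log axis for 13 of the genes with the largest rises and 13 with the largest falls, in PIC496-4 (red, left), PIC496-3 (blue, centre) and each of the other 5 lines (open circles, right). For Cd93 PIC496-4 lies at 0.155 FPKM and the other 5 lines at 27.6 to 357 FPKM.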

How the data were processed

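Gene expression was measured in 3 libraries each of PIC496-4 and PIC496-3. The deposited values are FPKM made by the authors. The aligner HISAT2 and the build mm39 are listed per the submitters' processing notes, while the file's gene coordinates are those of GRCm38 (GENCODE M21). For the read counter, annotation release and use of strand, nothing is stated: not given in the sources used here. FPKM times gene length gave whole fragments for 100% of values within 0.05 fragments. In the file 27 symbols had become dates and were restored by gene ID.

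log2(FPKM + 0.5) was fitted with limma 3.58.1 (trend and robust eBayes, R 4.3.3) over 13459 genes of all chromosomes, with Benjamini-Hochberg adjustment. Libraries of the same line differed beyond counting noise (chi-square per gene at least 3.91), so all 6 were kept. Intervals cover counting error only. On simulated libraries with 200 of 13459 genes changed, the fit recovered 87.4% of changes of 2 log2 units and 67.2% of 1, with 9.2 false calls on average. In the data 45.4% of the tested autosomal genes passed, so these rates need not hold there. Named were Cgas and Idh1, the 14 largest called changes in each direction that also passed without replicate 2 of PIC496-4, did not overlap and had no predicted symbol, up to 6 called genes per list, and the most abundant gene of each cell type list. Some genes that meet it are left out of the text and figures. Other named genes were chosen after their values were seen. Members, gene lists and the rule were chosen with earlier results of these data known. Alternatives were other pseudocounts, filters, scalings and eBayes settings, all 21 libraries, autosomes only, voom on recovered fragments, the replicate number as a block, and leaving out each library.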

Additional observations from a re-analysis of the deposited data

How the results depend on the processing

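No gene named by the rule that passed reversed direction under any of the alternatives run, and 12 of them failed the threshold under at least 1. Genes named outside the rule are not part of this count. Hoxa4, which did not pass, was at 0.02 without replicate 2 of PIC496-3. The median of the class I list was 0.03 with a mean of at least 2 FPKM, that of the Wnt and BMP list 0.02 under quantile normalization and that of glycolysis 0.01 after rescaling to TPM. The count of genes that rose by at least 1 log2 unit was 282 with a pseudocount of 1 in place of 0.5, against 435, which the scale itself sets, since a larger pseudocount shrinks the change of low genes. It was 620 with a pseudocount of 0.1 and 643 with voom. The other counts stayed within 1.5 times their value under each alternative: 2555 to 3398 genes higher and 2466 to 3416 lower with all 6 libraries kept. Leaving out 1 library gave 2246 to 3380 genes higher, 2411 to 3299 lower, 438 to 466 higher by at least 1 log2 unit and 965 to 992 lower by as much. Libraries with the same number did not deviate together (correlations of 0.033, -0.030 and -0.014). With 3 libraries a line this cannot show whether same-numbered libraries were grown or prepared together. The fit with the replicate number as a block gave 2555 higher and 2683 lower. Thy1 (limma adjusted p = 0.064) and Col1a1 (0.0667) did not pass without replicate 2 of PIC496-4, and Idh1 and Hotairm1 did. Depth limits the low genes, such as Cgas with 51 fragments in PIC496-4.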

Other observations

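Outside the autosomes, Xist, the RNA that coats the inactive X chromosome, was at 13.4, 19.7 and 13.7 FPKM in PIC496-4 and at 6.87, 7.52 and 9.93 FPKM in PIC496-3 (log2 difference 0.90, SE 0.18, limma adjusted p = 0.00676). The X-linked genes Kdm5c, Eif2s3x and Ddx3x, known to escape X inactivation, rose by 0.37, 0.51 and 0.40, while Kdm6a did not pass (limma adjusted p = 0.168). Over the 467 tested X-linked genes 93 rose and 127 fell, with a median of -0.01. Among the tested autosomal genes 22.4% rose and 23% fell, so the X-linked counts lie near the autosomal shares.

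Processed pseudogenes, copies of spliced mRNAs whose reads can belong to their parent genes, rose more often than they fell, with 92 and 43 of 811 (135 and 54 without replicate 2 of PIC496-4). Of 206 long intergenic RNAs 33 rose and 48 fell. Among all tested genes 22.4% rose and 23% fell. Long intergenic RNAs thus fell at about the share of all genes and rose less often. Processed pseudogenes passed less often than all genes in both directions.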
